A study of Mus musculus with 4 samples.

Results

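The genes described are those of cholinergic signalling in the nervous system: the neuronal nicotinic receptor subunits Chrna3, Chrna4, Chrna5, Chrna7, Chrnb2 and Chrnb4, the muscarinic receptor Chrm1, the synthetic enzyme Chat, the vesicular transporter Slc18a3 and the degrading enzyme Ache. They were chosen by name, and every target of the array annotated with one of these names was taken, where a target is a transcript with its own small set of probes. Of the 10 genes, 9 had targets, 22 of the 44170 targets and 9 of the 24172 genes on the arrays. Levels of Chrna7 were not analysed here. By the labels, the 4 single-colour arrays measured total RNA of N2a (Neuro2a) cells, a mouse neuroblastoma line, 2 after transfection with a scramble siRNA as the control (the controls below) and 2 after transfection with an siRNA against Men1. Both groups were grown in the same medium with serum, and the labels give no time after transfection and no siRNA sequence. Nothing in the labels says that the 2 replicates of a group came from separate cultures, so p-values measure only the spread between arrays, which may be technical. The comparison asks which transcripts differ when Men1, the gene for the chromatin scaffold protein menin, is knocked down.

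Acetylcholine is made by choline acetyltransferase (Chat), loaded into synaptic vesicles by the vesicular acetylcholine transporter (Slc18a3, also called VAChT) and, after release, broken down by acetylcholinesterase (Ache). It acts on nicotinic receptors, which are pentameric cation channels built from alpha and beta subunits, and on muscarinic receptors, which are coupled to G proteins. Receptors of Chrna4 and Chrnb2 are the common nicotinic type of the brain, whereas those of Chrna3 and Chrnb4, often with Chrna5, are typical of autonomic ganglia. Menin has been studied in neurons for its part in nicotinic receptor function at synapses. Neuroblastoma lines are known to carry Ache and, in some sublines, Chat.

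The sequences just upstream of Chrna3, Chrna4, Chrnb2 and Ache are shown because these genes carry the comparisons below. Chrna4 and Chrnb2 are the pair of brain receptor subunits. Chrna3 is a ganglionic subunit whose groups were apart, as were those of Chrnb4. Ache is the enzyme whose 2 control arrays were closest among these genes at or above 100 on all arrays. Each sequence is the 250 bases before the annotated start in RefSeq, read 5′ to 3′ on the gene's strand. Capitals mark each match to the GC box GGGCGG on either strand.
Chrna3 (GRCm38.p6, chr9:55026563-55026812, - strand): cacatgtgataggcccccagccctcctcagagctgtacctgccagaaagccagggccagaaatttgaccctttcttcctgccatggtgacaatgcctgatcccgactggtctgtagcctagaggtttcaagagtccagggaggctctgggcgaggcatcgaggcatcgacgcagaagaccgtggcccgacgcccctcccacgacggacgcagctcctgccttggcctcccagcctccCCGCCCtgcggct
Chrna4 (GRCm38.p6, chr2:181039178-181039427, - strand): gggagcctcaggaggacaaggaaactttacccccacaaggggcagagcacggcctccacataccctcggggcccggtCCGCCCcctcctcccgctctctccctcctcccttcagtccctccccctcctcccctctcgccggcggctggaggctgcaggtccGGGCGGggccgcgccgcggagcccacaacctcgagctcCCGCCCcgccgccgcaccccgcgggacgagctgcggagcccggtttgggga
Chrnb2 (GRCm38.p6, chr3:89764633-89764882, - strand): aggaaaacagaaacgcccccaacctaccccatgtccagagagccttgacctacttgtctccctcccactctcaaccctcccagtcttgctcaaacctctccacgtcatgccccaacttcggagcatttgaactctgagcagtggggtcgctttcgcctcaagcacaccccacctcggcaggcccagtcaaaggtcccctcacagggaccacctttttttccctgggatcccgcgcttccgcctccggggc
Ache (GRCm38.p6, chr5:137288004-137288253, + strand): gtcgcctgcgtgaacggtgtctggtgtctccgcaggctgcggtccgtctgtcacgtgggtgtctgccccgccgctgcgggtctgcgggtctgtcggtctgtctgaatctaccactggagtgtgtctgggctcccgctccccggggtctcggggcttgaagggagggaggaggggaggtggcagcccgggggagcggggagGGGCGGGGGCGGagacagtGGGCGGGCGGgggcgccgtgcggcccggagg
Counted with overlaps, the window of Ache held 4 GC boxes, that of Chrna4 held 3, that of Chrna3 held 1 and that of Chrnb2 held 0. A GC box stood in 32.7% of all 32851 windows of this length, and in 6 of the 10 windows of the listed genes (Chrna7 is included, Chrm1 was not matched and Chrna5 had several). The windows of Chrna4 and Ache were 74.4% and 73.6% G or C, against a median of 52.4% over all windows. The E-box CANNTG, on either strand, was in 9 of the 10 windows and in 66.2% of all windows. The core of the RE1 element, searched on both strands, was in 0 of the 10 and in 0.0335% of all windows. A match describes the letters of this window only.

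Values are intensities on a linear scale as the authors deposited them, and targets at or above 100 are called well above background. Random probes read between 42.8 and 52.3 on the 4 arrays, and array medians lay between 145.9 and 151.2. Men1 itself, at its brighter target, read 6985 and 6222 in the controls against 2764 and 4109 after Men1 siRNA, with a log2 difference of −0.97 ± 0.35 (SE, n = 2 arrays per group; limma adjusted p = 0.314), which missed the threshold of 0.05. Its other target read 3843 and 3824 against 2989 and 3802, a log2 change of only −0.19 ± 0.33 (limma adjusted p = 0.842 over all targets), and the mean of both targets was −0.58. Both targets were lower on both Men1 siRNA arrays, as labelled, but the size of the knockdown depends on the target. Markers of the labelled cell type were mixed: the general neuronal gene Tubb3 read between 34397 and 40661, while Th, the enzyme that starts catecholamine synthesis, read between 95 and 142. Transcripts not typical of this line were high, such as the cortical gene Neurod6 (2368 to 4395) and the globin gene Hbb-b1 (7273 to 23472). The replicate numbers are uncertain: the authors' value table holds the 2 control arrays under each other's number, and the image name inside the data of Men1 siRNA replicate 1 carries the number 2. The image name of Men1 siRNA replicate 2 also carries the number 2 and names no group. Numbers and groups below are those of the samples' titles, and the exchanged columns are both of controls.

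All 9 measured cholinergic genes had a higher mean log2 level with Men1 siRNA (8 of 9, all but Slc18a3, after quantile or cyclic loess normalization), but none passed the threshold. Without Men1 siRNA replicate 1, 7 of 9 were positive, and without Men1 siRNA replicate 2, 8 of 9. With the targets of each gene averaged, 8 of 9 were positive, all but Chrm1. For Chrna5, Chrnb2, Chrm1, Chat and Slc18a3 the 2 controls differed from each other by more than the groups did. The log2 changes, Men1 siRNA minus scramble siRNA at the brightest target of each gene, ran from 0.02 for Slc18a3 to 1.41 for Chrna3, with a median of 0.71 against 0.06 over all genes. Both ends of that range rest on values under 100. With every value under 100 set to 100, Chrna3 had 0.13, Chrnb4 0.0071 and Slc18a3 0.00, and the median was 0.44, while Chrna4 (1.02), Chrnb2 (0.65), Chrm1 (0.73) and Ache (0.50) were as before. A positive change was found for 54.5% of all genes. Limma, fitted across all 24172 genes, gave adjusted p-values between 0.164 and 0.99 for these 9, and 0.389% of all genes passed in either direction (0.0372% as higher). With a prior that lets the spread vary with intensity, still 0 of the 9 passed, against 2.94% of all genes (0.509% as higher). At an unadjusted p under 0.05 there were 2 of the 9, Chrna3 and Chrna4, both higher, against 6.47% of all genes in that direction. The Men1 siRNA arrays lay wholly above the scramble siRNA arrays for 4 of the 9, Chrna3, Chrna4, Chrnb4 and Ache, against 25.8% of all genes, and below them for none, where 47.5% of all genes did not overlap in either direction. Of the 22 targets, 18 were positive, against 54.2% of all targets, and 8 lay wholly above the controls, against 25.3%. A p that misses the threshold with 2 arrays per group does not show that levels were equal, and the smallest two-sided p of an exact permutation test is 0.333. In bulk RNA of this kind, fewer cells of a type and less RNA per cell cannot be told apart.

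**Figure D1:**
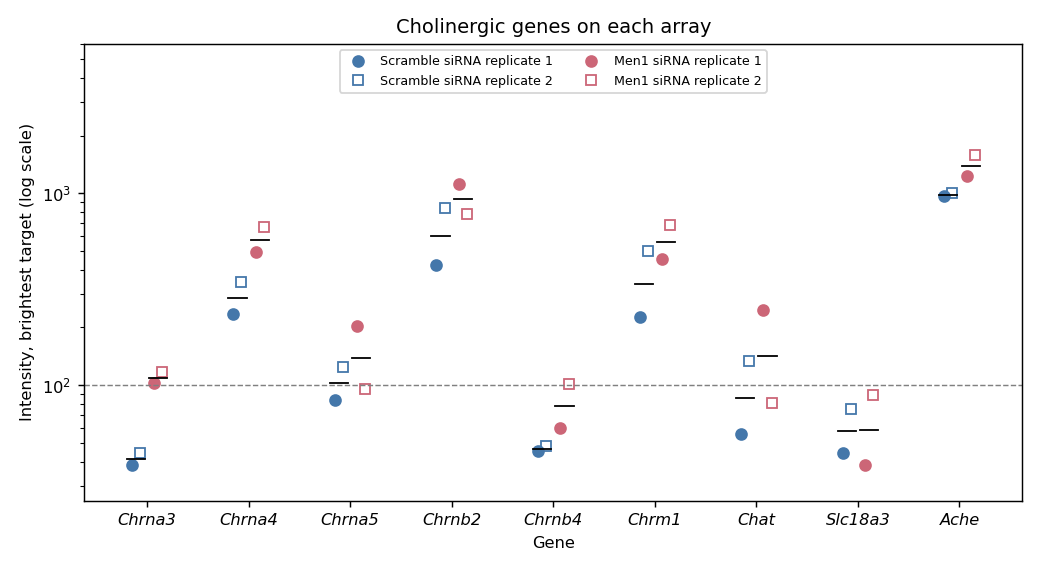
Intensity (log axis) of the brightest target of each of the 9 measured cholinergic genes on each array; filled circles are replicate 1, open squares replicate 2, blue scramble siRNA and red Men1 siRNA, short bars are geometric means of 2 arrays, and the dashed line marks an intensity of 100. The groups are separate for Chrna3, Chrna4, Chrnb4 and Ache, and scramble siRNA replicate 1 is the lowest point for 8 of the 9 genes.

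Of the brain-type nicotinic subunits, Chrna4, the ligand-binding alpha subunit (chromosome 2, 180757015 to 180773882 on build MM9, 1 target), read 234 and 343 in the controls against 492 and 670.2 after Men1 siRNA. Every Men1 siRNA array was above every scramble siRNA array, and all 4 were well above background. The group means were 289 ± 77.0 and 581 ± 126 (SD, n = 2), 2.03 times as high by the fit, a log2 change of 1.02 ± 0.37 (SE; limma adjusted p = 0.314). Its partner Chrnb2, the structural beta subunit (chromosome 3, 89557369 to 89568507, 1 target), read 425 and 835 in the controls against 1119 and 777 after Men1 siRNA. Here the groups overlapped, because scramble siRNA replicate 2 was above Men1 siRNA replicate 2. Its log2 change was 0.65 ± 0.45 (limma adjusted p = 0.558). Without scramble siRNA replicate 1 it was 0.16, and without scramble siRNA replicate 2 it was 1.13, whereas Chrna4 stayed between 0.74 and 1.29 with any 1 array left out.

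The ganglionic subunit genes Chrna5, Chrna3 and Chrnb4 lie side by side on chromosome 9, where their targets together span 54828903 to 54896304 on MM9, 67402 bases. Of these 3, Chrna3 and Chrna5 reached 100 on 2 arrays each and Chrnb4 on 1. Chrna3, the alpha subunit of the ganglionic receptor, read 38.4 and 44.6 with scramble siRNA, at the level of the random probes, and 103 and 117 with Men1 siRNA. The arrays of the groups were clearly apart, by a log2 change of 1.41 ± 0.31 (SE, n = 2; limma adjusted p = 0.164). Since both control arrays were under 100, only a bound can be given for the group means, at least 1.10-fold higher with Men1 siRNA. That bound, like those below, makes no allowance for spread between arrays. With a floor at 100 the log2 change was 0.13 (limma adjusted p = 0.732). The second Chrna3 target was under 100 on all arrays, with 28.0 and 34.4 against 54.0 and 39.1, and a log2 change of 0.57 ± 0.36. With any 1 array left out, the first target kept a log2 change between 1.30 and 1.51.

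Chrnb4, the beta subunit that pairs with Chrna3, read 45.5 and 48.1 in the controls against 59.6 and 101.0 after Men1 siRNA at its brighter target. Only Men1 siRNA replicate 2 reached 100. The log2 change of the values as deposited was 0.73 ± 0.38 (limma adjusted p = 0.446), and 0.35 without that array, but with a floor at 100 it was 0.0071, so its size is not known. Its other target, read at 59.4 and 43.0 against 39.2 and 59.9, had a log2 change of −0.06 ± 0.39, so its targets did not share a direction. Chrna5, an accessory subunit, read 84.1 and 125 in the controls against 203 and 95.5 after Men1 siRNA. The groups overlapped, and Men1 siRNA replicate 1 alone stood out. The log2 change was 0.44 ± 0.47 (limma adjusted p = 0.707) and turned to −0.10 without that array. The second Chrna5 target was also highest on Men1 siRNA replicate 1, with 44.8 and 112 against 136 and 85.5, a log2 change of 0.60 ± 0.53.

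**Figure D2:**
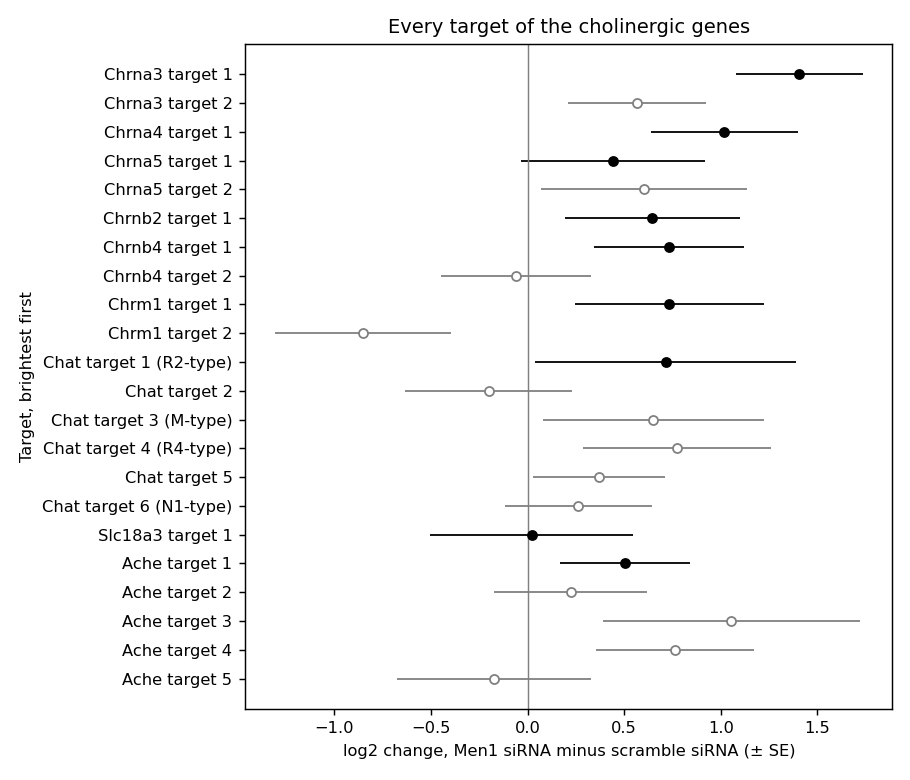
Log2 change with its standard error for each of the 22 targets of the 9 measured genes, numbered within a gene from the brightest; filled points are the targets that stand for the gene, and the types of Chat transcripts are those of the array annotation. Of the 22 changes 18 are positive, and Chrm1 is the gene whose targets lie farthest apart.

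The muscarinic receptor gene Chrm1 (chromosome 19, 8738510 to 8756057 on MM9), which encodes the M1 receptor of forebrain neurons, gave opposite directions at its 2 targets. The brighter read 226 and 498 in the controls against 453 and 686 after Men1 siRNA, with a log2 difference of 0.73 ± 0.49 (SE, n = 2; limma adjusted p = 0.546). The dimmer read 112 and 235 in the controls against 79.2 and 102 after Men1 siRNA, −0.85 ± 0.46 (limma adjusted p = 0.472 over all targets). At the brighter target the groups overlapped, and at the dimmer one both Men1 siRNA arrays lay below both controls. The mean of both targets was −0.06, so the direction of Chrm1 is not settled. At both targets scramble siRNA replicate 2 was well above replicate 1, by 1.14 log2 units at the brighter one.

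Acetylcholine synthesis and packaging share a locus. The target of Slc18a3 (chromosome 14, 33275943 to 33277652 on MM9) lies inside the span of 2 of the 6 Chat targets, those of the R2-type and R4-type transcripts (33267743 to 33279143), and the transporter gene is known to sit in the first intron of Chat. Slc18a3 was under 100 on every array, with 44.2 and 74.9 for scramble siRNA and 38.2 and 89.4 for Men1 siRNA. Both of its controls lay between the 2 Men1 siRNA arrays, and its log2 change was 0.02 ± 0.53 (SE, n = 2, limma adjusted p = 0.99). That change took either sign with the array left out, between −0.59 and 0.64. It was −0.02 after quantile normalization and −0.04 after cyclic loess. The R2-type target of Chat was the brightest of the gene, at 55.4 and 134 in the controls against 248 and 80.8 after Men1 siRNA. One array of each group was above 100 and the other below, and the log2 change was 0.71 ± 0.69 (limma adjusted p = 0.676). It was −0.09 without Men1 siRNA replicate 1 and 1.52 without Men1 siRNA replicate 2.

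The other 5 Chat targets were under 100 on every array but 1. The M-type target reached 103 on Men1 siRNA replicate 1 and was between 29.3 and 61.4 on the other arrays. The R4-type target read 23.4 and 55.5 in the controls against 55.9 and 68.0, with a log2 change of 0.77 ± 0.49 and no overlap. The N1-type target read 24.3 and 39.3 against 39.4 and 34.8, a change of 0.26 ± 0.38. A target without a named type read 30.9 and 40.5 against 44.0 and 47.5, also without overlap (0.37 ± 0.34), so both Chat targets with the groups apart were under 100 throughout. The target with the longest span (33221752 to 33273964) read 79.0 and 57.7 against 43.0 and 80.2, a log2 change of −0.20 ± 0.43. The readings above 100 for Chat thus came from the R2-type target on 1 array of each group and the M-type target on 1 array. The R2-type and R4-type targets have the same annotated span and may share sequence, so they are not independent.

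Ache (chromosome 5, 137728993 to 137735691 on MM9) had 5 targets and, at the brightest, controls that nearly coincided. That target read 964 and 1002 in the controls against 1227 and 1578 after Men1 siRNA. The groups did not overlap, with means of 983 ± 27.0 and 1403 ± 248 (SD, n = 2), a log2 change of 0.50 ± 0.32 (SE; limma adjusted p = 0.53). Of its 5 targets, 4 were positive, and all 4 were highest on Men1 siRNA replicate 2. The second read 160.4 and 209 against 167 and 274, a log2 change of 0.22 ± 0.40, and the groups overlapped. The fourth read 56.8 and 59.3 against 72.3 and 134, a change of 0.76 ± 0.41 with no overlap. The third read 85.8 and 115 against 104 and 411, a change of 1.06 ± 0.67, with the other 3 arrays close together. The fifth target, under 100 on all arrays, had −0.17 ± 0.50. With any 1 array left out the brightest target kept a log2 change between 0.32 and 0.68.

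Scramble siRNA replicate 1 was the lowest array for 8 of the 9 genes, against 33.1% of all genes, and for 17 of their 22 targets. The median difference between the 2 controls, replicate 2 minus replicate 1, was 0.57 on the log2 scale over the 9 genes and 0.08 over all genes. Without that array the median log2 change of the 9 was 0.16, against 0.03 over all genes, with 8 of 9 positive. Of the genes at or above 100 on all arrays, Chrna4 had 0.74 and Ache 0.47 there. Chrna3 had 1.30 and Chrnb4 0.69, both against a control under 100, and Chrnb2, Chrna5, Chrm1 and Chat were at 0.16 or below. Neural markers were low on the same array, which was the lowest for 8 of 8 forebrain genes and 8 of 10 neuronal and neuroblast genes. The summed level of the forebrain list was 12661 and 19979 in the controls against 25611 and 23584 after Men1 siRNA, with all 8 genes positive and a median log2 change of 0.66. The neuronal list summed to 69956 and 85401 against 96054 and 99596, with 9 of 10 positive and a median of 0.44. Its negative gene, Gata3, read 259 and 403 against 73.2 and 114, without overlap. The log2 change of Gata3 was −1.83 ± 0.40 (limma adjusted p = 0.162). Neither list had a member past the threshold.

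Markers of fibroblasts and epithelium, and most markers of immune and endothelial cells, had the opposite direction. The fibroblast list summed to 32243 and 34332 with scramble siRNA and to 3705 and 3796 with Men1 siRNA, with 2 of 6 genes past the threshold, both lower. The epithelial list summed to 19763 and 14188 against 690 and 1619, with 3 of 4 past the threshold, all lower. The immune and endothelial list summed to 9893 and 5969 against 2584 and 2470.3, with a median log2 change of −1.74 and no gene past the threshold. Of its 7 genes 1 was positive, Ptprc (761 and 189 against 497 and 399), and 5 lay wholly below the controls. For Aif1 the groups overlapped, with a log2 change of −0.20. The list of skeletal muscle, which carries its own nicotinic receptor, was mixed. It summed to 744 and 898 against 625 and 703, with 2 of 5 genes positive (Ckm and Myh3) and a median log2 change of −0.43. Myod1 and Myh3 were under 100 on all arrays, Myog and Ckm reached 100 on 1 array each, and Acta1 read between 404 and 711. The glial list summed to 4619 and 5441 against 5694 and 5225 (5 of 7 positive, median log2 change 0.25). The red cell list summed to 25442 and 13102 against 33188 and 39488 (3 of 3 positive, median 0.86). Of its 3 genes, Alas2 overlapped, with 626 and 367 against 421 and 563 and a log2 change of only 0.02. The part of these differences in the cholinergic values was not tested.

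**Figure D3:**
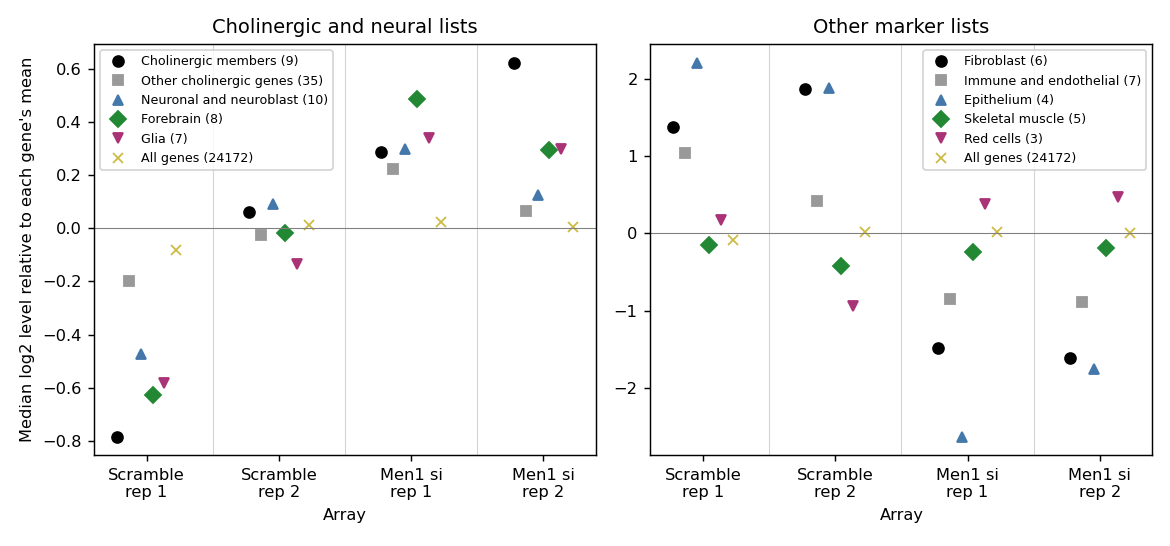
Median log2 level of each gene list on each array, after centring every gene on its own mean over the 4 arrays; the number of genes is in brackets, and points of 1 array are offset sideways only to be seen. The cholinergic genes are at −0.78 on scramble siRNA replicate 1 and between 0.06 and 0.62 on the other arrays, and forebrain genes at −0.63 on that array, while fibroblast and epithelial genes are above 1 on both scramble siRNA arrays and below −1 on both Men1 siRNA arrays.

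Of the other cholinergic genes, 35 were measured: further nicotinic and muscarinic receptors, choline and vesicle transporters, cholinesterase partners, receptor assembly factors and transcription factors. None passed the threshold (smallest limma adjusted p = 0.13), 22 were positive and 13 negative (54.5% of all genes were positive), and the median log2 change was 0.22 against 0.06 over all genes. Without scramble siRNA replicate 1 the median was 0.11 and 20 were positive. The groups did not overlap for 11 higher and 6 lower genes, where 25.8% and 21.7% of all genes did not. At an unadjusted p under 0.05 there were 6 higher and 1 lower, where 6.47% and 7.74% of all genes were. Scramble siRNA replicate 1 was the lowest array for 10 of the 35. Direction differed by role. Of the 7 transcription factors 2 were positive and 5 negative, with a median log2 change of −0.12. Positive changes were found for 1 of 3 choline and vesicle transporters (median −0.25) and 1 of 3 genes of hydrolysis and enzyme anchoring (median −0.38). The other neuronal and sensory nicotinic subunits had 3 of 4 positive (median 0.35), and the remaining roles follow below.

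Among muscarinic receptors all 4 others were positive. Chrm4, the M4 receptor that inhibits adenylyl cyclase, read 68.4 and 42.2 in the controls against 205 and 412 after Men1 siRNA. Its controls were under 100 and both Men1 siRNA arrays above, at least 2.90-fold higher by group means. The log2 change was 2.43 ± 0.47 (SE, n = 2; limma adjusted p = 0.13), the highest of the 35. Chrm2, the M2 receptor, read 76.6 and 71.8 against 189 and 121, at least 1.51-fold higher by group means (adjusted p = 0.303). Chrm3 was the single one of these 4 at or above 100 on all arrays, and its groups overlapped. It read 164 and 150 against 140 and 208, a log2 change of 0.12 ± 0.35 (limma adjusted p = 0.902). Chrm5 was under 100 on all arrays, with a log2 change of 0.40 ± 0.31. Of the 5 muscle-type nicotinic subunits 4 were positive. The fetal subunit gene Chrng was at least 1.62-fold higher by group means (90.9 and 66.7 against 117 and 226; adjusted p = 0.361). Chrnb1, named after its values were seen as the single subunit of this type at or above 100 on all arrays, went the other way, with 322 and 397 against 181 and 268, a log2 change of −0.70 ± 0.36 (adjusted p = 0.442).

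Among genes that assemble or modulate nicotinic receptors, 7 of 9 were positive, with a median log2 change of 0.52. Scramble siRNA replicate 1 was the lowest array for 6 of the 9, and without it 5 were positive and the median was 0.016. Ric3, a chaperone of nicotinic receptor assembly, read 109 and 117 in the controls against 306 and 227 after Men1 siRNA, with a log2 difference of 1.22 ± 0.33 (SE, n = 2; limma adjusted p = 0.219), and all 3 of its targets were positive. Lypd1 and Lynx1, membrane-anchored proteins that dampen nicotinic receptors, had 1.02 ± 0.38 and 0.86 ± 0.34 (adjusted p = 0.325 and 0.34). Lynx1 read 327 and 389 against 562 and 749, and Lypd1 197 and 313 against 575 and 439. For these 3 genes, which were chosen for their small p, the groups did not overlap. Rapsn, which clusters receptors at the muscle endplate, was at least 1.36-fold lower by group means (103 and 181 against 53.1 and 95.9; adjusted p = 0.429). Colq, the collagen tail that anchors Ache at the endplate, had 0.96 ± 0.37 (adjusted p = 0.341), with its other target at a fold of 1.01.

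The choline importer Slc5a7, which marks cholinergic terminals, was under 100 on all arrays, with 71.2 and 69.5 against 63.2 and 55.7. The other cholinesterase gene, Bche, read 178 and 227 against 199.6 and 106, a log2 change of −0.46 ± 0.42 (limma adjusted p = 0.658). Rest, the repressor of neuronal genes outside neurons, read 1547 and 903 in the controls against 509 and 157 after Men1 siRNA. Its groups did not overlap, with a log2 change of −2.06 ± 0.63 (SE, n = 2; limma adjusted p = 0.263), the lowest of the 35, and its other target overlapped, with 446 and 128 against 47.2 and 146.

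**Figure D4:**
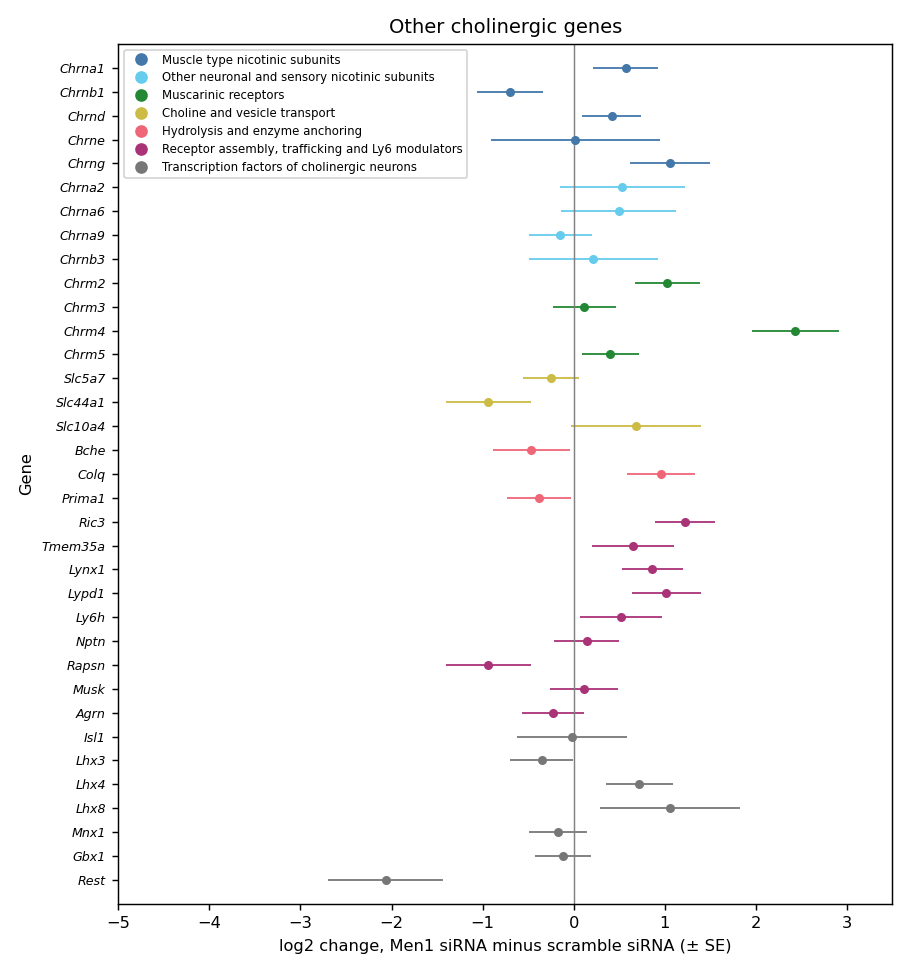
Log2 change with its standard error for the 35 other cholinergic genes, by role, at the brightest target of each gene. Chrm4 is farthest to the right at 2.43 and Rest farthest to the left at −2.06, and 22 of the 35 are positive.

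Chrm1 had the widest range, 1.60 log2 units, among the 4 genes at or above 100 on all arrays. Compared over the 4 arrays with the 12648 other genes at that level, after centring each gene on its mean, the closest profiles were those of Ipo11, Atg9b and Trav16d-dv11, with root mean square differences of 0.05, 0.05 and 0.06 on the log2 scale. Within 0.2 there were 114 genes, so 4 arrays single out no close companion.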

How the data were processed

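Total RNA of 4 samples was measured on 4 single-colour arrays, 2 per group. The series text names an Agilent array, but the labelling protocol and file format are NimbleGen, and the files were treated so. The authors deposited 1 linear intensity per target and array, which the names of their deposited tables call RMA values. For that step, the sources used here give no further detail. Precision is limited by the number of arrays. The control row of 5000 random probes was left out. The authors' value table holds exactly the 20620 targets at or above 100 on all 4 arrays, which set the level called well above background; its 2 scramble siRNA columns hold each other's values at 20617 targets (relative tolerance 1e-04), and the image name inside the file of Men1 siRNA replicate 1 carries the number 2, so the replicate numbers are uncertain.

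Symbols were updated by gene ID (21583 of 24204 matched). Values were taken to log2 with no further normalization. Each of the 24172 genes was represented by its brightest target (mean log2). Limma 3.58.1 in R 4.3.3 (lmFit and eBayes, a term for the group and no other) gave two-sided p-values, adjusted by Benjamini-Hochberg over all genes, threshold 0.05; single targets were fitted over all 44170 targets. The test was tried on simulated data, where changes of a size like those of the listed genes were not recovered. Where both arrays of a group were under 100, a fold is a bound: the brighter group against 100 or the dimmer value, whichever was higher, as means of log2 values. Such a bound holds for the group means and makes no allowance for spread between arrays. Genes other than the listed 10 were named by rule: Men1, Slc5a7, Bche, Rest, the 8 other pathway genes with the smallest p, and the 3 profiles closest to the listed gene with the widest range. Chrnb1, Chrm3 and Chrm5, outside this rule, were picked after their values were seen. So were the marker genes named for the cell type or singled out within a list. A marker of the cell type is not reported here. The genes and lists were chosen with earlier results of these data known. Alternatives were leaving out each array, a block for the replicate number, median, quantile and cyclic loess normalization, the value table, dim genes filtered out, averaged or single targets, trended and robust priors, a pseudocount of 32 and a floor at 100. Upstream sequences came from RefSeq's GRCm38.p6, array coordinates from MM9, the build in the files. Tables were handled with pandas 2.3.3 and numpy 2.4.6 in Python 3.11.15 and drawn with matplotlib 3.10.9.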

Additional observations from a re-analysis of the deposited data

How the results depend on the processing

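None of the 9 cholinergic genes, and none of the 35 other cholinergic genes, passed the threshold in limma under any alternative run. Over all 24172 genes, 94 passed. The totals tested were different for the authors' table (12702 genes), the filter on dim genes (16303 genes) and each target (44170 targets). With any 1 array left out the count was 0 (from 0 to 0), with values from the authors' table it was 422, with the filter on dim genes 289, over each target 150, with a trended prior 711, with a pseudocount of 32 it was 252 and with a floor at 100 it was 8. Of 177 values of single genes under alternatives, 11 changed sign. The other 166 are no measure of stability, since several alternatives leave a gene's log2 change as it is and none of these genes passed to begin with. With 1 array left out, Chrna5 ranged from −0.10 to 0.99, Chat from −0.093 to 1.52 and Slc18a3 from −0.59 to 0.64, with −0.36 without scramble siRNA replicate 1. Slc18a3 was −0.016 with quantile normalization and −0.042 with cyclic loess. Chrm1 was −0.059 as the mean of its targets. Single targets of the opposite sign were those of Chrm1 (−0.85), Chat (−0.20), Ache (−0.17) and Chrnb4 (−0.060). The cause of these changes was not tested.

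The replicate number shared by the groups does not pair them in the labels. With it as a block, 69 genes passed. Deviations of same-numbered arrays from their group means correlated at −0.17 across targets, and with the numbers crossed as a block, chosen after seeing the data, 0 genes passed in limma (3980 at an unadjusted p under 0.05). Targets under 100 have an uncertain size of change, which holds for most targets of Chrna3, Chrnb4, Chat and Slc18a3.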
